A study of Mus musculus with 12 samples.

Results

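The genes described here are 9 genes through which a macrophage can stimulate or restrain a T cell, taken by name from a table of 54232 genes: Cd274, Pdcd1lg2, Cd80, Cd86, Vsir, Cd40, Havcr2, Lgals9 and Ido1. All 9 were present in the table and all 9 entered the tests, which covered 16281 genes. They were measured by sequencing of poly(A) RNA in bone marrow derived macrophages (BMDMs), which are macrophages grown from mouse bone marrow with the growth factor MCSF. The marrow came from C57BL/6 WT mice, aged 6 to 8 weeks by the methods of the study.

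After 5 days in culture the cells received tumor-conditioned medium (TCM) or none for 24 hours, with or without 500 nM R788. TCM is medium that has been kept on tumor cells and holds what they release. Its source was NB9464, mouse neuroblastoma cells in which MYCN is amplified, or NBT3L, a line that lacks the amplification. R788 (fostamatinib) is a prodrug whose product inhibits the tyrosine kinase Syk. The 6 groups of 2 libraries were NS (neither TCM nor R788) and R788 alone, NBT3L TCM without (NBT3L TCM) or with the inhibitor (NBT3L TCM + R788), and likewise NB9464 TCM and NB9464 TCM + R788. The replicate numbers run from 1 to 12 over the series, so that NS holds replicates 1 and 2 and R788 alone holds replicates 7 and 8. NB9464 TCM was collected over 48 hours in DMEM without serum. Neither the labels nor the methods state how NBT3L TCM was prepared, what medium NS cells had or in what R788 was dissolved. An effect of TCM therefore cannot be told apart from that of base medium and serum, nor one of R788 from that of its solvent. The labels do not name separate mice or cultures, so the p-values measure the spread between these libraries, which may be technical.

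A T cell needs a signal beside the recognition of antigen, and the B7 proteins CD80 and CD86 on the presenting cell give it through CD28 or withhold it through CTLA-4. PD-L1 (Cd274) and PD-L2 (Pdcd1lg2) bind PD-1 and dampen T cells, and VISTA (Vsir), a further member of the B7 family that is abundant on myeloid cells, also acts as an inhibitory ligand. CD40 is the receptor on macrophages, dendritic cells and B cells for CD40L of helper T cells. TIM-3 (Havcr2) is an inhibitory receptor found on T cells and on myeloid cells, and galectin-9 (Lgals9) is a carbohydrate-binding protein that is one of its ligands. IDO1 breaks down tryptophan, the first step of the kynurenine pathway, which deprives T cells of that amino acid.

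Total counts were between 44977847 and 56449685 per library, and at least 1 count was present for between 17275 and 18343 genes in 11 libraries and for 16149 in R788 replicate 8. Results on R788 without TCM are therefore also given without that library where they changed with it. The macrophage label was checked on 8 markers, which were all detected and together made up 3.45% to 4.85% of a group's counts. Most of that share was Lyz2, at a mean of 1346000 normalized counts in NS, where the 8 summed to between 1610000 and 1659000. Single markers differed between groups. Adgre1 went from a mean of 73740 in NS to 290500 in NBT3L TCM, and Fcgr1 from 13880 in NS to 2959 with R788 alone. The defining markers Pax5 of B cells, Siglech of dendritic cells, Pdcd1 of T cells and Th and Chga of neuroblastoma were at 0 in all libraries. The 13 T cell genes summed to between 2271 and 2386 normalized counts in NS, between 603.6 and 643 in NB9464 TCM and between 1322 and 1375 in NBT3L TCM, and most of it was Cd28, at a mean of 2219 in NS. The 10 neuroblastoma markers were at 0 in both NS libraries and summed to between 25.8 and 26.9 normalized counts in NB9464 TCM and between 72.5 and 74.3 in NBT3L TCM. The part of these low levels in the results below was not tested. In bulk RNA, fewer cells with a transcript and less of it per cell cannot be told apart.

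Levels are given as normalized counts, which are read counts divided by the DESeq2 size factor of the library and not by gene length. Comparisons between genes use TPM, a transcript level divided by gene length and scaled to the same sum in every library. The scale mattered for TCM. With size factors set to the scaling of TPM, an alternative chosen after the data had been seen, the log2 fold changes against NS of all tested genes moved by a median of -0.25 in NB9464 TCM and -0.39 in NBT3L TCM, and with R788 within a medium the shift was between -0.073 and 0.066. Beside the results for the 9 genes the calls that this ended, added or turned are given, and for the other gene lists the counts where they changed. A gene was called higher or lower when the adjusted p of the DESeq2 Wald test over all tested genes was under 0.05.

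**Figure D1:**
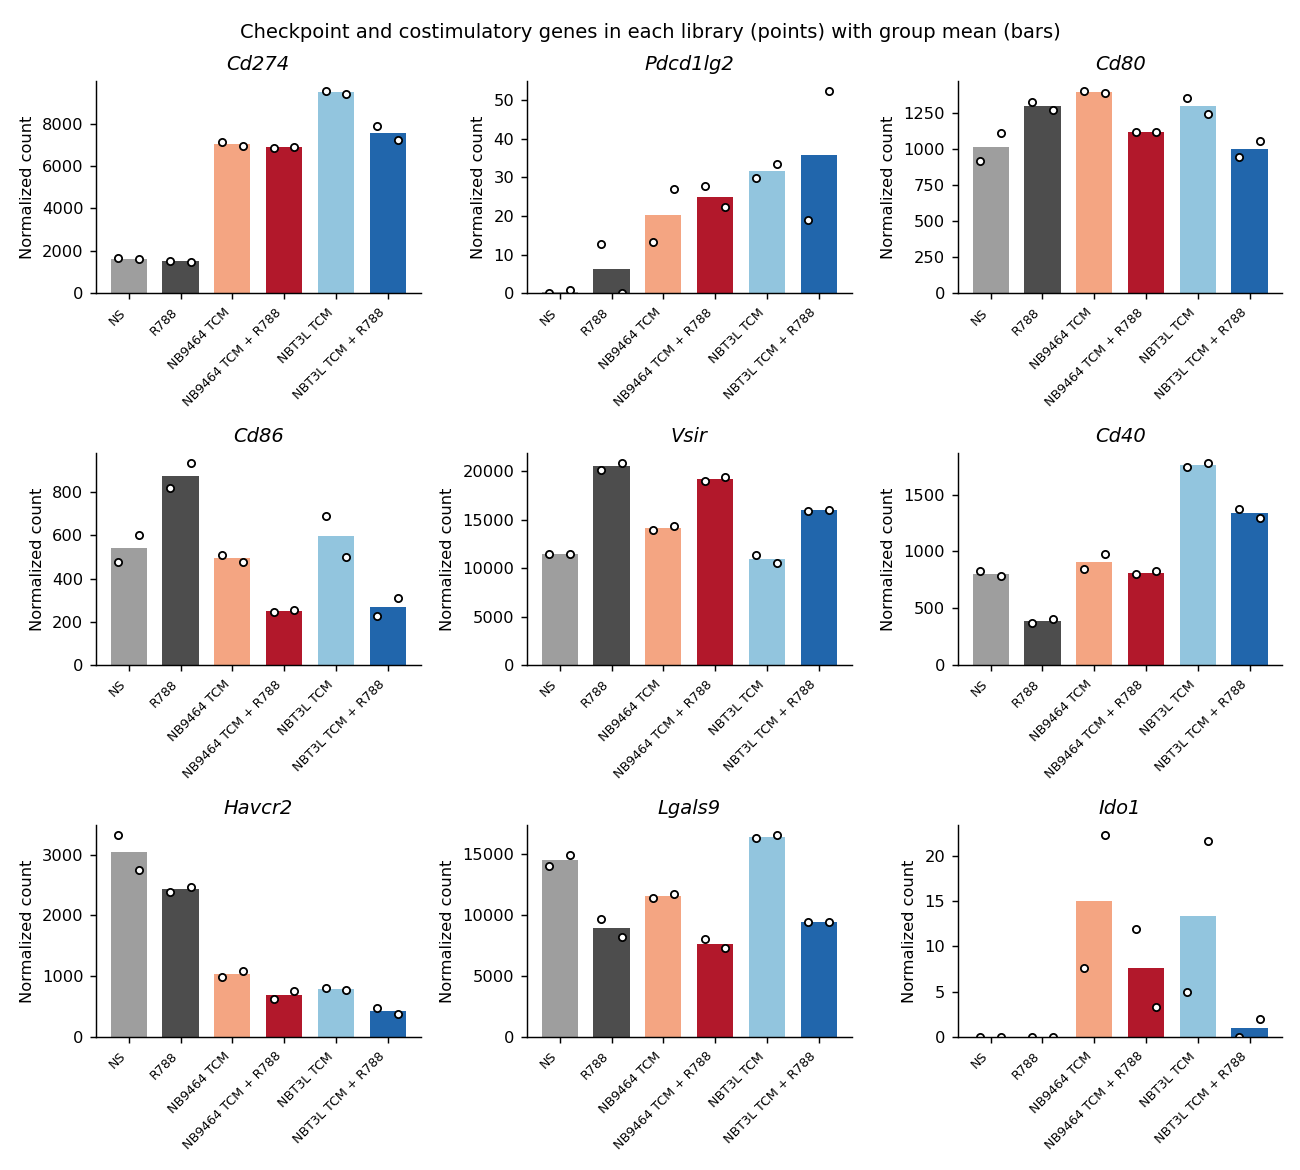
Normalized counts of the 9 genes in each library (points) and their group means (bars, n = 2), with a scale of its own for each gene starting at 0. Cd274 is high in the 8 libraries with TCM, Havcr2 is low in them, and Vsir is higher and Lgals9 lower with R788 in each medium. Pdcd1lg2 and Ido1 are higher in either TCM without R788 than in NS, with low group means of at most 35.7 and 15.0.

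On the scale of TPM, Lgals9 was the most abundant of the 9 in NS, at a mean of 432 TPM, followed by Vsir at 145, Havcr2 at 71.3, Cd274 at 28.9, Cd80 at 17.5, Cd40 at 15.1 and Cd86 at 9.38 TPM. No neighbours in this order overlapped between libraries, other than Pdcd1lg2 and Ido1, which were both under 0.04 TPM. With TCM the order changed. Cd274 moved from the fourth place in NS to the third in NB9464 TCM (104 TPM) and to the second in NBT3L TCM (127 TPM), and Havcr2 moved from the third to the fourth (20.3 TPM, overlapping Cd80 at 20.1) and to the sixth (14.1 TPM). With R788 alone Lgals9 and Vsir overlapped, at means of 280.3 and 274 TPM, and in NB9464 TCM + R788 Vsir stood first, at 194 against 182 TPM for Lgals9. On normalized counts, not divided by length, Vsir was below Lgals9 in NS and NBT3L TCM and above it in the other 4 groups. Pdcd1lg2 and Ido1 were the lowest in every group, with means of at most 1.05 and 0.433 TPM.

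**Figure D2:**
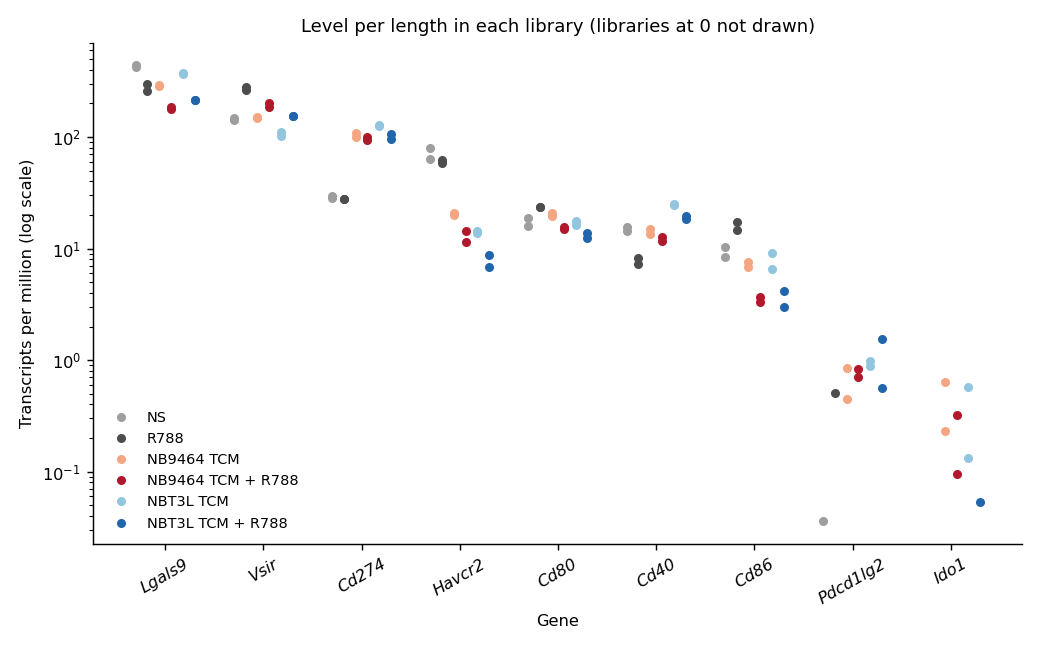
TPM of the 9 genes in each library on a log axis, genes ordered by mean over the groups, colours for the 6 groups, libraries at 0 not drawn. The levels run from a mean of 432 TPM for Lgals9 in NS to under 1.1 TPM for Pdcd1lg2 and Ido1.

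The comparison of each TCM with NS asked how medium of either tumor line changes the macrophages. In NB9464 TCM, 5 of the 9 genes were called higher (Cd274, Pdcd1lg2, Cd80, Vsir and Ido1) and 2 lower (Havcr2 and Lgals9), where 17.2% of all tested genes were called higher and 16.9% lower. With the scaling of TPM, the calls of Cd80 and Vsir ended, and 23.8% of the calls over all genes were higher, against 50.5%. In NBT3L TCM, 6 were called higher (Cd274, Pdcd1lg2, Cd80, Cd40, Lgals9 and Ido1) and 1 lower (Havcr2), with 18.0% and 17.3% of all tested genes. With the scaling of TPM, Cd80 was not called, Lgals9 was called lower, Vsir was called lower as well, and 16.7% of the calls over all genes were higher, against 51.1%. The median log2 fold change of the 9 was 0.31 and 0.35, and that of all tested genes 0.021 and 0.00. The NS libraries are shared by these comparisons.

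Of the 7 genes with more than a few counts, Cd274 had the largest log2 fold change with either TCM. The gene of PD-L1 (ENSMUSG00000016496, chromosome 19, 29367455 to 29388095, plus strand, mm10) stood at 1657 and 1627 normalized counts in NS, at 7117 and 6964 in NB9464 TCM and at 9523 and 9400.1 in NBT3L TCM. All TCM libraries lay far above both NS libraries, and both NBT3L libraries lay above both NB9464 libraries. In NB9464 TCM it rose 4.29-fold (log2 2.10 ± 0.069 SE, adjusted p = 2.15e-199), and in NBT3L TCM 5.76-fold (log2 2.53 ± 0.069, adjusted p = 2.64e-289). Cd274 exons overlap those of AC119228.1 on the opposite strand, and whether counting used strand was not stated.

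Pdcd1lg2 (PD-L2, ENSMUSG00000016498, chromosome 19, 29410919 to 29471161, plus strand) lies next to Cd274 and was close to the limit of detection. It had 0 and 1 read counts in NS, 14 and 29 in NB9464 TCM and 24 and 31 in NBT3L TCM. The ratio of summed counts, scaled for depth, was 43.0 for NB9464 TCM (95% exact interval 7.31 to 1740.0, counting error only) and 67.3 for NBT3L TCM (11.6 to 2710.0). The call in NB9464 TCM (adjusted p = 0.0106) was lost without NS replicate 1 (adjusted p = 0.0763) or without NB9464 TCM replicate 4 (adjusted p = 0.0613), whereas that in NBT3L TCM (adjusted p = 0.00324) was kept in all 10 alternatives that gave an adjusted p.

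Cd80 and Cd86, the ligands of CD28, moved little with TCM. Cd80 (ENSMUSG00000075122, chromosome 16, 38455561 to 38496335, plus strand) was at 920.4 and 1114 normalized counts in NS, 1401 and 1392 in NB9464 TCM and 1352 and 1244 in NBT3L TCM, with no overlap between NS and either TCM. Its log2 fold change was 0.46 ± 0.13 (SE, adjusted p = 0.00189) and 0.35 ± 0.13 (adjusted p = 0.0225). Without NS replicate 1 the adjusted p was 0.108 and 0.33, and the second call was also lost without NBT3L TCM replicate 5 (0.205) or 6 (0.052). Scaled as TPM, Cd80 was at 0.21 (adjusted p = 0.211) and -0.040 (adjusted p = 0.842). Cd86 (ENSMUSG00000022901, chromosome 16, 36603869 to 36666081, minus strand) was at 479 and 601 in NS, 509.8 and 478 in NB9464 TCM and 691 and 499.9 in NBT3L TCM. The groups overlapped, and the 95% interval of the log2 difference was -0.56 to 0.30 and -0.29 to 0.57.

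Vsir (VISTA, ENSMUSG00000020101, chromosome 10, 60346851 to 60372684, plus strand) separated the conditioned media. It was at 11433 and 11435 normalized counts in NS, 13975 and 14377 in NB9464 TCM, and 11357 and 10556 in NBT3L TCM. It rose by a log2 fold change of 0.31 ± 0.053 (SE, adjusted p = 4.56e-08) in NB9464 TCM, and in NBT3L TCM the change was -0.062 ± 0.054 (adjusted p = 0.42). Under TPM scaling these were 0.056 (adjusted p = 0.538) and -0.45 (adjusted p = 6.5e-12), so that the sign of either held and both calls changed.

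Cd40 (ENSMUSG00000017652, chromosome 2, 165055627 to 165072948, plus strand), a receptor of the TNF receptor family, showed the opposite split. It was at 830.2 and 782 normalized counts in NS, 846 and 978 in NB9464 TCM and 1740.2 and 1778 in NBT3L TCM. In NBT3L TCM it rose 2.18-fold (log2 1.13 ± 0.13 SE, adjusted p = 1.6e-16), and in NB9464 TCM its log2 difference was 0.18 with a 95% interval of -0.083 to 0.44 (adjusted p = 0.339). Under TPM scaling they were 0.73 (adjusted p = 4.91e-07) and -0.079 (adjusted p = 0.713).

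Havcr2 (TIM-3, ENSMUSG00000020399, chromosome 11, 46454935 to 46481255, plus strand) was the gene that fell in both media. From 3326 and 2753 normalized counts in NS it went to 984 and 1091 in NB9464 TCM and to 811 and 775 in NBT3L TCM, a log2 fold change of -1.55 ± 0.14 (SE, adjusted p = 2.08e-26) and -1.94 ± 0.14 (adjusted p = 8.12e-40). The NS level was 2.93-fold and 3.83-fold that in TCM. Its ligand gene Lgals9 (galectin-9, ENSMUSG00000001123, chromosome 11, 78962974 to 78984946, minus strand) was at 14069.9 and 14946 in NS, 11398 and 11777 in NB9464 TCM and 16293 and 16597 in NBT3L TCM. Lgals9 fell by 0.32 on the log2 scale in NB9464 TCM (adjusted p = 0.000115), and the rise in NBT3L TCM, 0.18 ± 0.076 (SE), had an adjusted p of 0.0493 and was lost or turned in 8 of 11 alternatives, among them the scaling of TPM (-0.21, adjusted p = 0.00547), edgeR (adjusted p = 0.13) and the omission of NS replicate 1 (0.307) or 2 (0.054) or of NBT3L TCM replicate 5 (0.127) or 6 (0.211).

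Ido1 (ENSMUSG00000031551, chromosome 8, 24584136 to 24597009, minus strand) had 0 counts in both NS libraries, 8 and 24 in NB9464 TCM and 4 and 20 in NBT3L TCM. Against an assumed 3 counts in each NS library, its mean level was 5.29-fold in NB9464 TCM and 4.70-fold in NBT3L TCM. These ratios have no interval, and the libraries within each TCM differed widely. DESeq2 called it in both (adjusted p = 0.0178 and 0.0208), edgeR in neither (adjusted p = 0.0514 and 0.0552). The study reports Ido1 from these samples among immunosuppressive genes raised by NB9464 TCM and lowered by R788, so its call is not independent evidence.

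**Figure D3:**
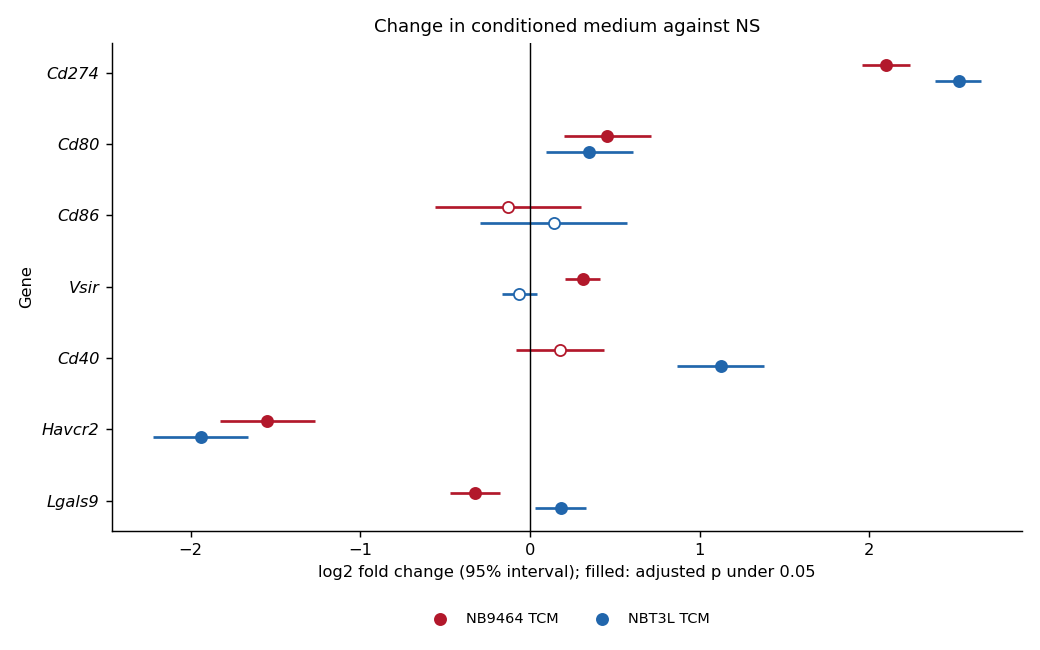
Log2 fold change against NS in NB9464 TCM (red) and NBT3L TCM (blue) for the 7 genes with more than a few counts, with 95% intervals and filled points where the adjusted p was under 0.05. Cd274 is at 2.10 and 2.53, Havcr2 at -1.55 and -1.94, and Cd86 has open points on both sides of 0.

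The direct comparison of the media, NB9464 TCM against NBT3L TCM, called 1 of the 9 genes higher and 3 lower, where 3.69% and 5.72% of all tested genes were called. Vsir was higher in NB9464 TCM (log2 0.37 ± 0.053 SE, adjusted p = 2.29e-10). Cd274 (-0.43 ± 0.066, adjusted p = 4.98e-09), Cd40 (-0.95 ± 0.13, adjusted p = 3.59e-11) and Lgals9 (-0.51 ± 0.076, adjusted p = 2.15e-09) were lower. These 4 calls held in all 11 alternatives. Havcr2, at 0.39 ± 0.15 (adjusted p = 0.0584), was called in 3 of 11 alternatives, among them the scaling of TPM (0.53, adjusted p = 0.0072). With the scaling of TPM 80.2% of the calls over all genes were higher in NB9464 TCM, against 39.2%.

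R788 was compared with its absence in each medium, to ask what inhibition of Syk changes. Without TCM, 3 of the 9 genes were called higher (Cd80, Cd86 and Vsir) and 2 lower (Cd40 and Lgals9), with 11.6% and 15.0% of all tested genes. In NB9464 TCM, 1 was called higher (Vsir) and 3 lower (Cd86, Havcr2 and Lgals9), with 5.79% and 8.7%; with the scaling of TPM Cd80 was also called lower (-0.39, adjusted p = 0.0184). In NBT3L TCM, 1 was called higher (Vsir) and 6 lower (Cd274, Cd80, Cd86, Cd40, Havcr2 and Lgals9), with 5.33% and 7.24%. Averaged over the 3 media, 1 was called higher and 5 lower, with 13.4% and 16.2%, and the median log2 fold change was -0.47 for the 9 genes and -0.0071 for all tested genes.

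Vsir and Lgals9 moved in opposite directions with R788 in every medium. Vsir was at 20099.7 and 20829 normalized counts with R788 alone, 18969 and 19380.4 in NB9464 TCM + R788 and 15855 and 16035 in NBT3L TCM + R788, each pair above the pair without R788. The log2 fold changes were 0.84 ± 0.053 (SE, adjusted p = 2.96e-54), 0.44 ± 0.053 (adjusted p = 1.41e-14) and 0.54 ± 0.054 (adjusted p = 4.44e-22). Lgals9 was at 9672 and 8173 with R788 alone, 8007 and 7287 in NB9464 TCM + R788 and 9421 and 9440.2 in NBT3L TCM + R788, each pair below the pair without R788. It fell by 0.70, 0.60 and 0.80 on the log2 scale (adjusted p = 1.84e-18, 3.67e-13 and 1.32e-23). Without R788 replicate 8 the changes without TCM were 0.81 for Vsir and -0.59 for Lgals9.

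Cd86 changed direction with the medium. R788 took it to 819 and 935 normalized counts without TCM, above both NS libraries, and to 247 and 258 in NB9464 TCM + R788 and 227 and 311 in NBT3L TCM + R788, below every library of its medium without the inhibitor. The log2 fold change was 0.70 ± 0.22 (SE, adjusted p = 0.00671) without TCM and -0.97 ± 0.23 in cells given NB9464 TCM (adjusted p = 0.000267). In those given NBT3L TCM it was -1.14 ± 0.23 (adjusted p = 1.02e-05). The rise without TCM was lost without NS replicate 1 (adjusted p = 0.135) or R788 replicate 8 (0.0769), and the falls were kept in all alternatives.

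Cd80, the other ligand of CD28, had changes of the same signs at a smaller size. It was at 1329 and 1269 normalized counts with R788 alone, 1118 and 1119 in NB9464 TCM + R788 and 947 and 1056 in NBT3L TCM + R788. The rise without TCM was 0.35 ± 0.13 (SE, adjusted p = 0.0258) and was lost without NS replicate 1 (adjusted p = 0.332) or R788 replicate 7 (0.113) and with a fit of only the libraries compared (0.106). In NB9464 TCM the change was -0.32 (adjusted p = 0.0679), and in NBT3L TCM -0.37 (adjusted p = 0.0324), a call that edgeR (adjusted p = 0.0641) and the omission of NBT3L TCM replicate 5 (0.285) or 6 (0.103) or of NBT3L TCM + R788 replicate 11 (0.334) or 12 (0.0695) did not keep.

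Cd40 fell with R788 mainly where no TCM was given. It was at 371 and 407 normalized counts with R788 alone, 801 and 825 in NB9464 TCM + R788 and 1377 and 1290.2 in NBT3L TCM + R788. Without TCM the NS level was 2.07-fold that with R788 (log2 fold change -1.05 ± 0.14 SE, adjusted p = 5.55e-13). In NB9464 TCM the change was -0.17 with a 95% interval of -0.43 to 0.096 (adjusted p = 0.462). In NBT3L TCM it was -0.40 (adjusted p = 0.018), and the omission of any 1 of the 4 libraries compared ended that call (adjusted p between 0.0906 for replicate 11 and 0.232 for replicate 12, with 0.132 for replicate 5 and 0.202 for replicate 6).

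Cd274 moved little with the inhibitor. It was at 1534 and 1484 normalized counts with R788 alone, 6852 and 6910.0 in NB9464 TCM + R788 and 7884 and 7246 in NBT3L TCM + R788. The log2 change was -0.12 (95% interval -0.26 to 0.02, adjusted p = 0.215) without TCM, -0.033 with NB9464 TCM (-0.16 to 0.096, adjusted p = 0.814) and -0.32 with NBT3L TCM (-0.45 to -0.19, adjusted p = 2.16e-05). In TCM with R788 it remained well above NS, 4.19-fold where the medium came from NB9464 (adjusted p = 1.32e-192) and 4.61-fold where it came from NBT3L (adjusted p = 1.38e-219).

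Havcr2 was at 2391 and 2473 normalized counts with R788 alone, 633 and 749.8 in NB9464 TCM + R788 and 485 and 383 in NBT3L TCM + R788. R788 lowered it further in both media, with log2 fold changes of -0.59 ± 0.15 (SE, adjusted p = 0.000776; 0.0659 without NB9464 TCM + R788 replicate 9) and -0.87 ± 0.15 (adjusted p = 2.8e-07). Without TCM the change was -0.32 ± 0.14 (adjusted p = 0.0687; 0.0416 without NS replicate 2).

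The low genes gave less. Pdcd1lg2 had 14 and 0 counts with R788 alone, 28 and 20 in NB9464 TCM + R788 and 18 and 52 in NBT3L TCM + R788, which overlapped the counts without R788 in each medium. Ido1 had 0 and 0, 12 and 3, and 0 and 2 counts in the same order. Summed and scaled for depth, Ido1 in NBT3L TCM + R788 was 0.0745 of its level in NBT3L TCM (95% exact interval 0.00853 to 0.30, counting error only), and in NB9464 TCM + R788 0.522 of its level in NB9464 TCM (0.263 to 0.992). These intervals leave out the spread between replicates (8 and 24 counts in NB9464 TCM), and DESeq2 gave no adjusted p for either.

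**Figure D4:**
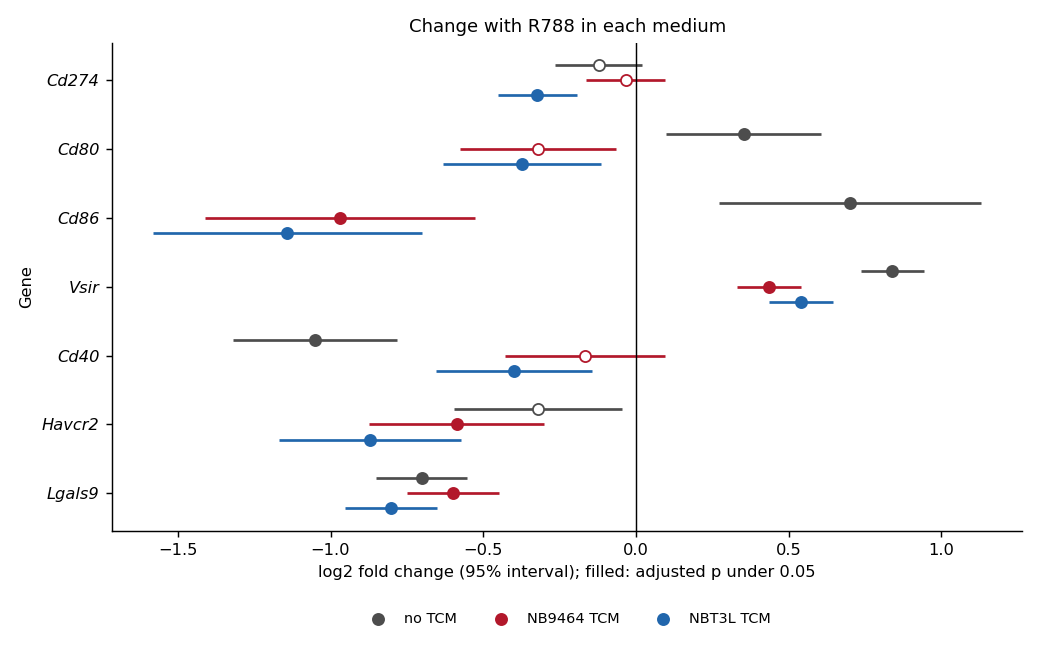
Log2 fold change with R788 without TCM (grey), in NB9464 TCM (red) and in NBT3L TCM (blue) for 7 genes, with 95% intervals and filled points where the adjusted p was under 0.05. Cd86 is at 0.70 without TCM and at -0.97 and -1.14 with TCM, Cd40 at -1.05 without TCM and nearer to 0 with it, and Lgals9 at -0.60 to -0.80 throughout.

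The difference in the R788 effect between media was tested itself. Between NB9464 TCM and no TCM, 1 of the 9 genes was called with a higher effect (Cd40) and 3 with a lower one (Cd80, Cd86 and Vsir), where 6.22% and 6.26% of all tested genes were called. Between NBT3L TCM and no TCM these were the same 4 genes, with 5.17% and 4.96% of all tested genes. The comparisons share the NS and R788 libraries. For Cd86 the difference in log2 fold change was -1.67 ± 0.32 (SE, adjusted p = 3.61e-06) for NB9464 TCM and -1.84 ± 0.31 (adjusted p = 2.27e-07) for NBT3L TCM, kept in all 15 alternatives, and without R788 replicate 8 it was -1.57 and -1.74. The difference of Cd80 was -0.67 (adjusted p = 0.00326; 0.0555 without NS replicate 1) and -0.73 (adjusted p = 0.00153), that of Vsir -0.40 (adjusted p = 2.39e-06) and -0.30 (adjusted p = 0.00136; 0.0518 without NBT3L TCM replicate 5). For Cd40 it was 0.88 (adjusted p = 8.9e-05) and 0.65 (adjusted p = 0.00748; 0.0638, 0.0635 and 0.0758 without NS replicate 1, NBT3L TCM replicate 5 and NBT3L TCM + R788 replicate 11). For Lgals9 the differences were 0.10 (95% interval -0.11 to 0.32) and -0.10 (-0.31 to 0.11). Scaled as TPM, the 8 calls held, that of Cd40 at 0.74 and 0.58, and Havcr2 was also called for NBT3L TCM (-0.62, adjusted p = 0.0336).

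Between the conditioned media, no difference in the R788 effect was called for the 9 genes, where 0.283% of all tested genes were called with a higher and 0.424% with a lower effect. At an unadjusted p under 0.05 there was 1 of 9 by DESeq2 and 1 by edgeR. It was Cd274, with a difference of 0.29 ± 0.093 (SE, adjusted p = 0.146), which was called when only the libraries compared were fitted (0.29, adjusted p = 0.0141).

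Against NS, the combination NB9464 TCM + R788 had 4 genes called higher (Cd274, Pdcd1lg2, Vsir and Ido1) and 3 lower (Cd86, Havcr2 and Lgals9), with 20.0% and 19.4% of all tested genes. NBT3L TCM + R788 had 4 higher (Cd274, Pdcd1lg2, Vsir and Cd40) and the same 3 lower, with 20.1% and 19.7%. With the scaling of TPM, Vsir was not called in NBT3L TCM + R788 (0.089, adjusted p = 0.251), Cd80 was called lower there (-0.41, adjusted p = 0.00444), and Ido1 was not called in NB9464 TCM + R788 (adjusted p = 0.0655). The Ido1 call was also lost by edgeR (adjusted p = 0.0799), with counts divided by 2 (0.0867) and without NB9464 TCM + R788 replicate 10 (0.0661), and was kept in 2 of 6 alternatives that gave an adjusted p. Cd86 in these groups was 2.14-fold and 2.01-fold below NS (adjusted p = 6e-06 and 3.79e-05), and Havcr2 4.40-fold and 7.01-fold below it (adjusted p = 3.18e-48 and 2.31e-79).

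The sequence before the start of 6 of the 9 genes was matched by symbol in RefSeq promoters (GRCm38.p6, 250 bases before to 50 after the start): Cd274, Pdcd1lg2, Cd80, Vsir, Havcr2 and Lgals9, and not Cd40, Cd86 and Ido1. They were searched on both strands for the letters of the interferon-stimulated response element (ISRE, GAAANNGAAA), a motif of interferon-induced genes, and of the gamma-activated site (GAS, TTCNNNGAA), to which STAT dimers bind. The 3 printed here are those of Lgals9, which fell with R788 in every medium, Vsir, which rose in every medium, and Cd274, which of the 7 genes with more than a few counts rose most with TCM. Each is written 5′ to 3′ on the strand of the gene, at chr11:78984875-78985174 (minus strand), chr10:60346601-60346900 (plus strand) and chr19:29367188-29367487 (plus strand), with matches in capitals.
Lgals9: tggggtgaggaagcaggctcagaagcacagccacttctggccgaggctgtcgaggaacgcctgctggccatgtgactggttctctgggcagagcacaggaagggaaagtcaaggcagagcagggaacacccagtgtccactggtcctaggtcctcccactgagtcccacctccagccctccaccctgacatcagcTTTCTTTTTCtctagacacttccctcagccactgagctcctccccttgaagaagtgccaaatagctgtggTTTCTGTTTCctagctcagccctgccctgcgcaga
Vsir: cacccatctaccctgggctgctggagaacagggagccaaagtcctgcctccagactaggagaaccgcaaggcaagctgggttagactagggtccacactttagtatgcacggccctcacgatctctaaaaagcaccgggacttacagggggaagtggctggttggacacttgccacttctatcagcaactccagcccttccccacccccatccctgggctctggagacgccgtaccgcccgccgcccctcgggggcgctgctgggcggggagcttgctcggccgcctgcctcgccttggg
Cd274: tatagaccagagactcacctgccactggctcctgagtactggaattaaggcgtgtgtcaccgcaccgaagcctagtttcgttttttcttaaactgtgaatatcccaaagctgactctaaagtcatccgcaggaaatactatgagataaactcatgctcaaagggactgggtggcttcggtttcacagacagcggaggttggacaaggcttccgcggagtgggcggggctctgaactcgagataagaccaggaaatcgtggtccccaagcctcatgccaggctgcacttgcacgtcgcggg

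The Lgals9 promoter held 2 ISRE matches, both on the opposite strand, starting at bases 196 and 266 of the 300, before and after the start of the gene. The other 5 promoters held neither motif in this window. Of 32851 promoters of the same length, 3.44% held ISRE and 8.3% GAS letters. A match is a description of letters and not evidence of binding.

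The other genes of these pathways were counted by list. For each list below, the shares of all tested genes called higher and lower were 17.2% and 16.9% in NB9464 TCM. They were 18.0% and 17.3% in NBT3L TCM and 11.6% and 15.0% with R788 alone. With R788 in NB9464 TCM they were 5.79% and 8.7%, and in NBT3L TCM 5.33% and 7.24%. Whether a list differs from these shares was not tested. Of 16 genes of interferon signalling and of PD-L1 stabilisation, NB9464 TCM had 5 called higher and 7 lower, and NBT3L TCM 7 and 6 (3 and 10 in both with the scaling of TPM). Socs1, a feedback inhibitor of JAK kinases, rose by a log2 fold change of 2.17 and 3.41, and Jak2, a kinase of the interferon gamma receptor, by 1.39 and 1.87. Ifngr1, a chain of that receptor, fell by 0.82 and 0.89 on the log2 scale. With R788, 3 were called higher and 4 lower without TCM, 4 and 4 in NB9464 TCM and 2 and 5 in NBT3L TCM (5 and 4, 3 and 5, and 2 and 4 with the scaling of TPM). Stat2, a transcription factor of type I interferon signalling, fell by 1.10, 1.34 and 1.46 on the log2 scale in these media, and against NS by 0.95 in NB9464 TCM and 0.44 in NBT3L TCM. Cmtm6, which protects PD-L1 protein from degradation, rose by 0.35 with R788 alone (adjusted p = 2.5e-07), with changes of 0.11 (adjusted p = 0.236) and 0.080 (adjusted p = 0.478) in NB9464 TCM and NBT3L TCM. Exons of Jak1, Stat3, Irf1, Irf9 and Ifnar2 overlap those of other genes.

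Of 12 genes of CD40 signalling, 8 were called higher and 4 were not called in each TCM. Of all tested genes, 17.2% were called higher in NB9464 TCM and 18.0% in NBT3L TCM. On the scaling of TPM there were 5 rises and 3 falls in NB9464 TCM, and 8 and 3 in NBT3L TCM. The largest rises were of Birc3, an inhibitor of apoptosis bound by TRAF proteins, with log2 fold changes of 1.66 and 1.94, and Tnfaip3, an inhibitor of NF-kB signalling, with 1.91 and 1.74. R788 without TCM, where Cd40 fell, called 5 higher and 2 lower (6 and 1 with the scaling of TPM). Relb (0.87) and Nfkb2 (0.82), the subunits of the non-canonical NF-kB pathway, rose, whereas Tnfaip3 (-0.34) and Traf1 (-0.23; adjusted p = 0.173 with the scaling of TPM) fell. R788 called 3 higher in NB9464 TCM and 5 higher and 2 lower in NBT3L TCM (4 and 2 with the scaling of TPM), where Map3k14, the kinase NIK, rose by 0.45. Exons of Nfkb2, Map3k14 and Traf5 overlap those of other genes.

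Among 7 other B7 and butyrophilin ligands, 3 were tested. Icosl, the ligand of ICOS, fell in NB9464 TCM and NBT3L TCM (log2 fold change -0.79 and -1.18) and rose with R788 in all 3 media (0.60, 0.84 and 0.88). Cd276 (B7-H3) fell in both TCM (-1.76 and -1.26) and with R788 without TCM and in NBT3L TCM (-1.09 and -0.74), and its exons overlap Gm10657 on the opposite strand.

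Of 8 TNF superfamily ligands listed as costimulatory, 6 were tested. In NB9464 TCM 3 rose and 2 fell, and in NBT3L TCM 2 rose and 2 fell (2 and 2, and 1 and 2, with the scaling of TPM). Tnfsf15 (TL1A) rose from a mean of 13.2 normalized counts in NS to 112 and 122, and Tnfsf9 (4-1BB ligand) from 847.5 to 1447 and 1365 (adjusted p = 0.0637 in NBT3L TCM with the scaling of TPM). Tnfsf14 (LIGHT) fell from 383 to 76.3 and 98.3. R788 called 1 higher and 1 lower without TCM, 1 and 2 in NB9464 TCM, and 0 and 1 in NBT3L TCM. Tnfsf15 rose with R788 without TCM (log2 fold change 2.12, adjusted p = 0.000105) and in NB9464 TCM (1.23, adjusted p = 0.0142), with 0.61 (adjusted p = 0.362) in NBT3L TCM. Tnfsf14 fell without TCM (-1.02, adjusted p = 0.00823) and in NB9464 TCM (-1.72, adjusted p = 0.000239), with -0.11 (adjusted p = 0.909) in NBT3L TCM.

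Of 12 other ligands of inhibitory receptors, 11 were tested, and 4 rose and 3 fell in NB9464 TCM and 5 rose and 3 fell in NBT3L TCM. On the scaling of TPM 4 rose and 6 fell in NB9464 TCM, and 4 and 4 in NBT3L TCM. Cd200, the ligand of the myeloid receptor CD200R, rose from a mean of 49.0 normalized counts in NS to 186 and 545, a log2 fold change of 1.92 and 3.47. Nectin2, a ligand of TIGIT and CD226, rose in NB9464 TCM (1.49), in NBT3L TCM (1.08) and with R788 in every medium (0.67, 0.68 and 0.78). Pvr, which binds the same receptors, also rose in both TCM (0.88 and 1.03). With R788 it fell in NB9464 TCM (-0.62) and in NBT3L TCM (-0.54), with -0.14 (adjusted p = 0.536) without TCM. Lgals3, a ligand of LAG-3, fell in both TCM (-1.54 and -1.33), as did Hmgb1, a ligand of TIM-3 (-1.09 and -0.98). H2-T23 (Qa-1), the ligand of NKG2A, fell in both TCM (-0.62 and -0.67) and further with R788 in each of them (-0.71 and -0.84), and its change with R788 alone was -0.65 (adjusted p = 2.4e-11). R788 called 2 higher and 5 lower of this list without TCM, 2 and 3 in NB9464 TCM and 3 and 3 in NBT3L TCM (3 and 5, 2 and 4, and 3 and 3 with the scaling of TPM). Exons of Nectin2 and Hmgb1 overlap those of other genes, as do those of Tnfsf9.

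**Figure D5:**
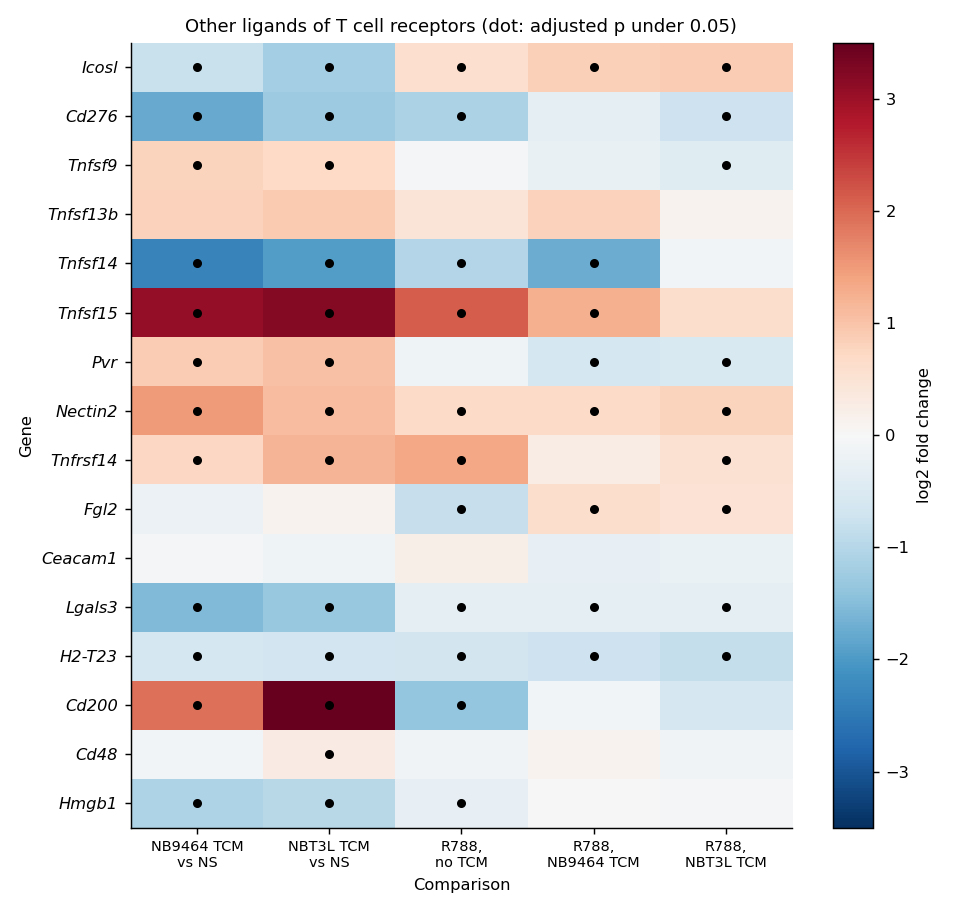
Log2 fold change (colour) of 16 genes with a mean of at least 100 normalized counts over the groups, in 5 comparisons. They come from the lists of other B7 and butyrophilin ligands, TNF superfamily ligands and other ligands of inhibitory receptors. A dot marks an adjusted p under 0.05. Icosl is blue with both TCM and red with R788 in all 3 media, and Cd200 and Tnfsf15 are red with both TCM.

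Of 14 genes of the kynurenine pathway and tryptophan handling beside Ido1, 13 were tested, with 4 called higher and 1 lower in NB9464 TCM and 4 and 2 in NBT3L TCM (2 and 1, and 2 and 4, with the scaling of TPM). Wars, the tryptophanyl-tRNA synthetase, rose in NB9464 TCM (log2 fold change 0.60, adjusted p = 1.1e-06) and in NBT3L TCM (0.39, adjusted p = 0.00236; -0.0017 and 0.995 with the scaling of TPM). Ahr, a receptor of kynurenine, rose in NBT3L TCM (0.93, adjusted p = 0.00185; 0.0881 with the scaling of TPM), with 0.63 (adjusted p = 0.0531) in NB9464 TCM, and with R788 without TCM (0.91, adjusted p = 0.00313). Slc7a5, the light chain of the transporter LAT1 that carries tryptophan, rose in NB9464 TCM (0.31; 0.051 and adjusted p = 0.778 with the scaling of TPM) and fell in NBT3L TCM (-1.20). R788 called 2 higher and 2 lower without TCM, 1 and 2 in NB9464 TCM, and 0 and 0 in NBT3L TCM (2 and 1, 0 and 2, and 0 and 1 with the scaling of TPM). In NBT3L TCM 2 genes had an unadjusted p under 0.05 by DESeq2 and 2 by edgeR, which called 0 as well. The rise in NB9464 TCM was that of Slc3a2, the heavy chain of the same transporter (0.16, adjusted p = 0.0212; 0.245 with the scaling of TPM).

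The genes whose levels over the 12 libraries followed Cd274 most closely were Slpi, Cxcl1 and Acod1, each with a Pearson correlation of 0.997 of log2(normalized count + 1) among 10333 protein-coding genes. The 12 points share their TCM and R788 groups, so the value describes these libraries only. For Cd40 Cct8 (0.981) and Actb (0.978) were among the 3 closest, and for Cd86 Rbms1 (0.936), Cd164 (0.93) and Eea1 (0.924). For Cd80 they were Entr1 (0.859), Clec5a (0.857) and Plcb3 (0.84). Those of Pdcd1lg2 (Mpc1, 0.96) and Ido1 (Dbt, 0.96) rest on few counts. Cd274 and Havcr2 had a correlation of -0.902 with each other over the same 12 libraries.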

How the data were processed

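Members were the named genes, and the other gene lists, tests and alternatives were chosen with earlier results of these data known. The authors deposited raw read counts, as whole numbers for each Ensembl gene, with no scaling for depth or length. Their methods name STAR for alignment to mm10 and Salmon for quantification. The submitters' processing notes name STAR 2.6.1d and Salmon 1.4.0. The settings for strand and for reads with several places were not given in the sources used here. Labels state paired reads, the methods single reads. Even values made up between 65.2% and 67.9% of counts from 1 to 40, so counts divided by 2 were tried. GENCODE M21 gave symbols for 54165 IDs, and positions are 1-based. The authors' methods state triplicates, and the labels give 2 libraries per group.

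Genes reaching 10 counts in 2 or more libraries were tested with DESeq2 1.42.0 (R 4.3.3) in a single fit of 6 group means over 12 libraries: median-of-ratios size factors, two-sided Wald tests, unshrunken log2 fold changes, and Benjamini-Hochberg adjustment over all tested genes within each of 12 contrasts. Genes without an adjusted p were not called. Ratios of summed counts have exact 95% intervals, which take each count as independent and may be too narrow given the share of even values. A fold against 0 counts used 3 counts per library. From each other list, at most 2 rises and 2 falls per comparison were named among called genes with a mean of at least 100 normalized counts (Irf9, Jak1, Stat3, Irf1 and Ifnar2 are named only for overlaps). For 6 members, the 3 protein-coding genes above that mean with the highest Pearson correlation were named. A gene so named is also given in other comparisons. Some genes that these rules name are not reported here. The alternatives were edgeR 4.0.16 with TMM, TMM within DESeq2, a filter at a mean of 50 counts or none, counts divided by 2, only the libraries compared, each library left out and, chosen after seeing the data, DESeq2 size factors set to the scaling of TPM.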

Additional observations from a re-analysis of the deposited data

Results flagged for a closer look

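The effect of R788 differed between media for 4 of the genes, each by the test of the difference itself (DESeq2, adjusted over all tested genes). Relative to cells without TCM, the log2 fold change of Cd86 with R788 was lower by a difference of -1.67 in NB9464 TCM and -1.84 in NBT3L TCM. For Cd80 the difference was -0.67 and -0.73, for Vsir -0.40 and -0.30, and for Cd40 0.88 and 0.65. Cd86 and Cd80 had mean changes above 0 without TCM and below 0 in both TCM, Vsir had changes above 0 in all 3 media, and Cd40 had changes below 0 in all 3. All 8 differences use the same NS and R788 libraries, among them R788 replicate 8, which had the fewest detected genes.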

How the results depend on the processing

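With 2 libraries per group, the calls rest on the spread that DESeq2 shares between groups. No paired analysis was possible because no replicate number is shared between groups. Of 1032 results under an alternative, 955 kept direction and side of the threshold, 42 lost a call, 16 gained it and 19 changed sign. This count leaves out Pdcd1lg2 and Ido1 outside the comparisons of TCM, with or without R788, against NS. It also leaves out all genes but Cd274 in the difference between the conditioned media, and called results without an adjusted p in the alternative. Among those left out, Pdcd1lg2 with R788 alone ranged from -1.68 to 5.18 on the log2 scale. Calls of Ido1 and Pdcd1lg2 rest on few counts, and Ido1 often had no adjusted p with 1 library left out, which lowers the counts below.

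Leaving out each library in turn leaves 1 library in a group. For NB9464 TCM and NBT3L TCM (7 of the 9 genes called in each with all libraries), every such fit called fewer of the 9. Every such fit also called fewer of all tested genes. For R788 without TCM (5), the number called went either way, for the 9 genes and for all tested genes. For the difference in R788 effect between NBT3L TCM and no TCM (4), it was never higher for the 9 genes and went either way for all tested genes. The fewest of the 9 were called without NS replicate 1 for the first 3 and without NBT3L TCM replicate 5 for the last. For NBT3L TCM the fewest were also called without NBT3L TCM replicate 5 or 6. For the difference between the conditioned media, 1 of the 9 genes was called in the fit of only the libraries compared.

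With size factors set to the scaling of TPM, chosen after seeing the data, 69 of the 86 results so counted kept direction and side of the threshold. Those that changed sign in TCM against NS were Cd40 in NB9464 TCM (-0.079), and Cd80 (-0.040), Cd86 (-0.25) and Lgals9 (-0.21) in NBT3L TCM. In NB9464 TCM + R788 against NS they were Cd80 (-0.19) and Cd40 (-0.32), and in the R788 effect of NB9464 TCM minus no TCM Cd274 (-0.061) and Lgals9 (-0.048). This scaling moves all log2 changes of a comparison by about the same amount. Of the calls over all genes it left 20.9% higher, against 49.9%, for the R788 effect of NB9464 TCM minus no TCM, 35.2% against 51.1% for NBT3L TCM minus no TCM and, between the conditioned media, 23 higher and 121 lower against 46 and 69. The share was 56.8% against 43.5% for R788 alone, 22.5% against 39.9% for R788 in NB9464 TCM, and 21.6% and 18.7% against 50.8% and 50.5% for the combinations against NS.

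The results that changed sign under the other alternatives were not called either way, and the cause was not tested. With 1 library left out, the log2 fold change of Cd86 was between -0.29 and 0.042 for NB9464 TCM and between -0.11 and 0.35 for NBT3L TCM, that of Cd80 in NBT3L TCM + R788 against NS between -0.15 and 0.12, and that of Cd40 in NB9464 TCM + R788 against NS between -0.031 and 0.056, with -1.21e-05 by edgeR and -4.76e-05 with TMM in DESeq2. The difference in R788 effect of Lgals9 against no TCM was between -0.013 and 0.23 in NB9464 TCM and between -0.22 and 0.024 in NBT3L TCM.

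Over all tested genes, the count of calls for the difference in R788 effect between the conditioned media was 115, with 21 by edgeR, 272 in the fit of only the libraries compared and between 46 and 76 with 1 library left out. With 1 library left out, counts fell by over 1.5 times to as low as 795 from 1531 (NB9464 TCM against NBT3L TCM), 1432 from 2359 and 1173 from 2046 (R788 in NB9464 TCM and NBT3L TCM) and 1344 from 2032 (R788 effect, NB9464 TCM minus no TCM), and ranged from 1038 to 2583 around 1649 (NBT3L TCM minus no TCM). TMM scaling moved the median of all genes by at most 0.021 on the log2 scale.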
